A study of Zea mays with 10 samples.

Results

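In maize seedlings kept in constant light (LL), 25 of 17621 probe sets had a lower signal from ZT28 to ZT44 than in the first hours of the time course, by a margin set by a fixed rule. These 25 probe sets were selected on their measured signals. The lowest signal over ZT0, ZT4 and ZT8 (the early arrays) had to be at least 100 and at least 1.5 times the highest signal over ZT28, ZT32, ZT36, ZT40 and ZT44 (the late arrays). The ZT0 signal also had to be below 1.7 times the ZT4 signal, which keeps out transcripts that were high only at the first dawn. The lower late signal is therefore given by the choice and is described below without a test. The arrays at ZT20 and ZT24 were not read by the rule.

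Zeitgeber time (ZT) counts hours from the dawn of the first day in LL. Maize inbred B73 seedlings were grown for 7 days in photocycles of 12 h light and 12 h dark before the transfer to LL. The leaf and shoot of 5 seedlings were harvested in each of 3 replicates, whose RNA was pooled for 1 Affymetrix Maize Genome Array. Arrays were read for ZT0, ZT4 and ZT8 and then every 4 h from ZT20 to ZT44. All 10 arrays thus carry the same genotype and the same treatment, and LL is not set against photocycles here. With 1 pooled array per time point there is no spread between replicates, and time in LL, seedling age and harvest order cannot be told apart.

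A transcript that follows the circadian clock tends to move back towards its morning level at the next subjective morning, even when the light no longer changes, but the return need not be complete. A transcript that depends on the daily dark period, or on the age of the leaf, need not return. In a whole shoot such a fall also has no single reading, since fewer cells of a type and less RNA per cell cannot be told apart. The 4 members with a gene name act in different parts of metabolism. The gene gpc4 encodes a cytosolic glyceraldehyde-3-phosphate dehydrogenase of glycolysis. The symbol nar, given by the platform annotation but not matched in the RefSeq gene table, was read here as nitrate reductase, which takes the first step of nitrate assimilation and is widely known as a gene controlled by nitrate and light. The gene lhcb6 encodes CP24, a minor antenna protein that links the outer light harvesting complexes to the core of photosystem II. The gene zrp4 encodes an O-methyltransferase first described for its preference for roots. The other 21 members carry no gene name in the annotation used and are known here only by their probe set identifiers.

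The signals are the deposited array intensities on a linear scale, with values below 1 set to 1. Of the 10412 probe sets whose signal was 100 or more at ZT0, ZT4 and ZT8, the rule took 0.24%. The mirrored rule asks for a lowest late signal of at least 100 and at least 1.5 times the highest early one. It sets no limit on ZT0 and took 82 probe sets, where the falling rule without that limit took 35. Without a minimum fold, 12% of the 12512 probe sets that reached a signal of 50 on 3 or more arrays (the filter used for all fits) had every early array above every late one, and 17% had every late array above every early one. A further 10 probe sets met the signal and ratio criteria but were left out by the limit on ZT0. The 25 members belong to 23 sequence clusters of the array design, because 3 of them probe the cluster Zm.1090.

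**Figure D1:**
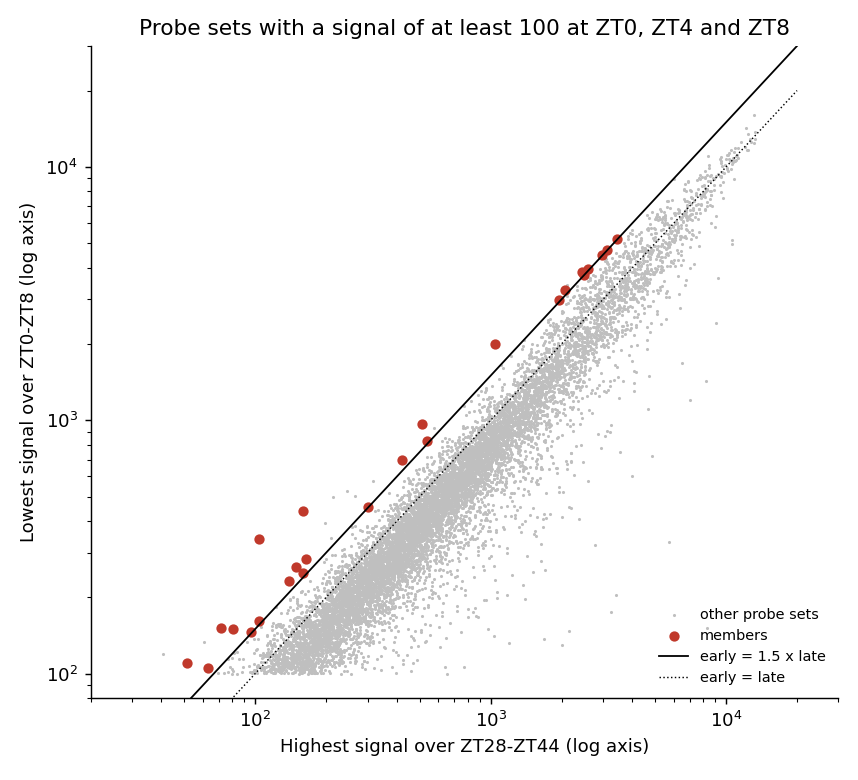
The lowest signal over ZT0, ZT4 and ZT8 (vertical log axis) is set against the highest signal over ZT28 to ZT44 (horizontal log axis) for the 10412 probe sets at 100 or more on all early arrays, 1 point per probe set. The 25 members (red) lie on or above the solid line at 1.5, from dim to bright probe sets, and the grey points above that line are the 10 left out by the limit on ZT0.

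The ratio of the lowest early to the highest late signal ran from 1.501 to 3.27 among the members, with a median of 1.59. In 4 members it was at least 2, and in 13 it was below 1.6, so that most members lay close to the threshold. The fold between the geometric means of the early and the late arrays was larger, between 1.596 and 5.21 with a median of 2.11. The last members inside the threshold were Zm.17544.1.A1_at at 1.508, Zm.6732.2.A1_at at 1.507 and Zm.1090.1.A1_x_at at 1.501. The first probe sets outside it were Zm.616.1.S1_at, which probes the aquaporin gene tip3a, at 1.494, Zm.8110.1.A1_at at 1.494 and Zm.7091.1.A1_x_at, a second probe set of lhcb6, at 1.493. The threshold therefore parts probe sets of 1 gene whose ratios differ in the second decimal.

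The member with a gene name and the highest ratio was gpc4. Its signals were 971, 1027 and 1094 at ZT0, ZT4 and ZT8. They were 459 at ZT20 and 600 at ZT24, and then 509, 433, 381, 389 and 411 from ZT28 to ZT44. All 7 arrays from ZT20 onward lay below the lowest early array, and ZT24 was the highest of them. The geometric means were 1029 early and 422 late, a fold of 2.44.

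Not every cytosolic glyceraldehyde-3-phosphate dehydrogenase had this course. The probe set Zm.3765.1.S1_s_at of gpc1 gave signals between 6077 at ZT28 and 7629 at ZT24, with early and late arrays overlapping and a fold of 1.06 between the geometric means. The gene gpc2 also overlapped, with a fold of 1.14. The gene gpc3, which with gpc4 is known in maize as a form induced by lack of oxygen, lay lower on the late arrays in 2 of its 3 probe sets without overlap. Its brightest probe set, Zm.2601.1.S1_at, had 3104, 3366 and 3038 on the early arrays and between 1843 and 2388 on the late ones, a fold of 1.58. The other 2 probe sets of gpc3 belong to the same sequence cluster as the gpc4 probe set (Zm.274), so RNA of 1 gene can reach the probes of the other. Their folds were 1.74 and 1.47. A further probe set of that cluster, Zm.274.2.S1_at, stayed level, with 1165.5 to 1259 early and 1088.4 to 1223.5 late, a fold of 1.01. The plastid enzyme gene gpa1 had a fold of 1.19. Over the 8 probe sets of this family the median difference, late minus early, was -0.40 on the log2 scale, beside 0.06 for all 12512 probe sets passing the filter. None of the 20 probe sets in a list of other glycolytic, fermentation and sucrose-cleaving enzymes was a member. Of the 13 that passed the filter, 3 lay lower and 3 higher on all late arrays, beside 12% and 17% of all probe sets, with a median of 0.04. Among the lower was pfk1, a phosphofructokinase gene, at 806, 458 and 368 on the early arrays and between 240 and 279 on the late ones.

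The antenna gene lhcb6 was the brightest of the named members. The signals of its member probe set Zm.7091.2.S1_a_at were 4493, 4978 and 4615 on the early arrays. They were 2364 at ZT20, 3330 at ZT24, and 2472, 2975, 2279, 2126 and 2303 from ZT28 to ZT44. The late arrays were all low, but ZT24 and ZT32 stood above their neighbours. The other 2 bright probe sets of this gene also lay lower on all late arrays: Zm.7091.1.A1_at gave 11044 to 11698 early and 5534 to 8405 late, a fold of 1.81, and Zm.7091.1.A1_x_at gave 8942 to 9001 early and 4024 to 5988 late, a fold of 1.96. The remaining probe set of lhcb6 stayed below 8 on all arrays and did not measure it.

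**Figure D2:**
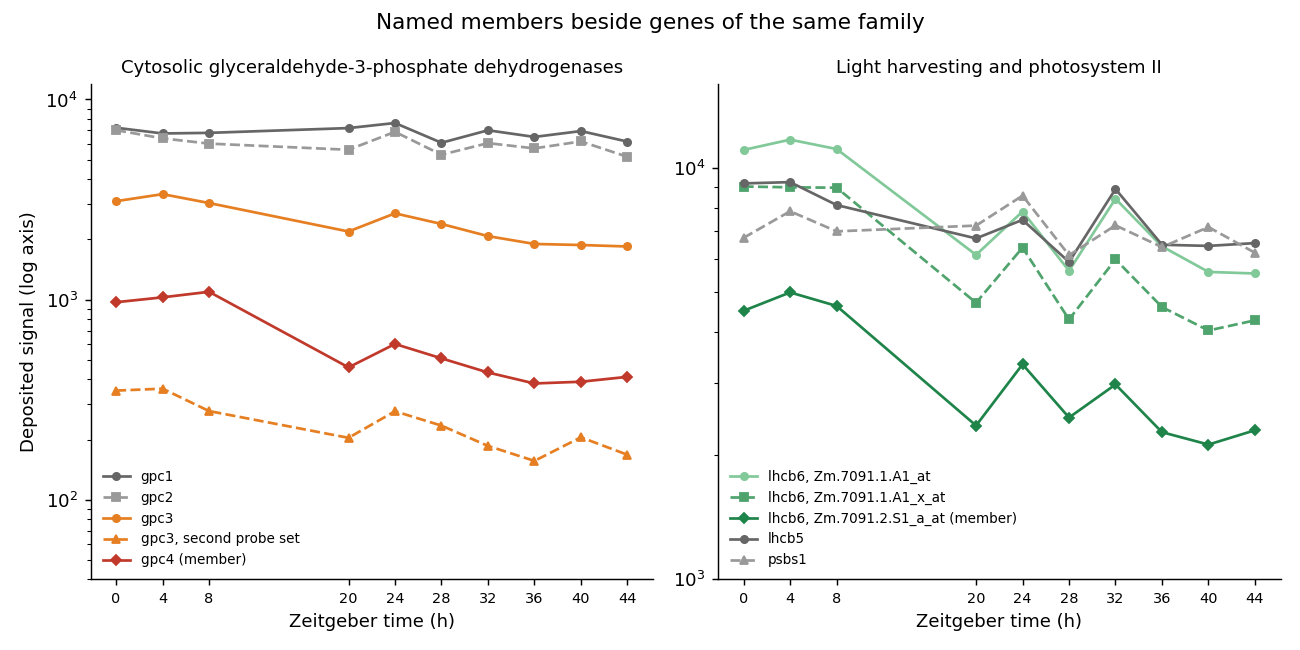
Deposited signals (log axis) over Zeitgeber time (h) for cytosolic glyceraldehyde-3-phosphate dehydrogenase genes (left) and for genes of light harvesting and photosystem II (right), 1 array per point and 1 line per probe set. The gpc4 line drops after ZT8 from 1094 to 459 while gpc1 and gpc2 stay nearly level, and the 3 bright lhcb6 probe sets run in parallel, each with ZT24 and ZT32 above the neighbouring arrays.

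The other 11 genes of the light harvesting and photosystem list had no member. Of the 15 probe sets of this list that passed the filter, 7 lay lower on all late arrays, 1 lay higher and 7 overlapped. The list also holds the ferredoxin genes fdx2, fdx3 and fdx6, and the probe set that lay higher, Zm.4.1.S1_at, belongs to fdx3. Over all probe sets that passed the filter, 12% lay lower and 17% higher. The list's median difference was -0.43 on the log2 scale. Of the 7 that lay lower, 3 were the bright lhcb6 probe sets. The gene lhcb5, for the minor antenna protein CP26, had a fold of 1.299 with overlapping arrays. Its sister gene lhcb5-2 lay lower on all late arrays with a fold of 1.42. The gene psbs1, which encodes the photosystem II protein of energy-dependent quenching, had a fold of 1.09. The photosystem I gene psan1 lay lower on all late arrays with a fold of 1.34. These bright probe sets share a feature of the arrays: the 99th percentile of the signals was between 6755 and 6817 on the early arrays and between 5415 and 6442 on the late ones, with its lowest values at ZT28 and ZT44. After quantile normalization, which gives all arrays the same distribution, the ratio of lhcb6 was 1.43 in place of 1.51, whereas that of gpc4 was 2.01 in place of 1.91.

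The probe set Zm.125.1.S1_at (nar), read as nitrate reductase, was dimmer and more variable. Its signals were 150, 268 and 276 at ZT0, ZT4 and ZT8, so the first dawn was its lowest early point. They were 70.3 at ZT20 and 86.7 at ZT24, and then 55.2, 80.2, 38.0, 42.1 and 67.9. The late arrays differed among themselves by a factor of 2.11, but all were below the lowest early one, and the fold between geometric means was 4.09. The second nar probe set stayed below 26 on all arrays. The gene nnr1, a nitrate reductase gene, had 1268, 2049 and 1024 early and between 591 and 1271 late, so that its early and late arrays overlapped. The nitrate transporter gene nrt1.1 went the other way, from 85.9 to 144 early to between 162 and 230 late. Across the 14 probe sets for nitrate and nitrogen assimilation, 10 passed the filter. Of these, 3 lay lower, the member nar among them, and 2 higher on all late arrays, beside 12% and 17% of all probe sets. The median difference was -0.30 on the log2 scale, with the probe set Zm.3369.1.A1_at counted under both gln1 and gln2. A wider list of nitrogen assimilation and amino acid genes, found by text in the annotation and holding no member, had the opposite sign, with 0 lower and 4 higher of 23 that passed the filter and a median of 0.13.

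The O-methyltransferase gene zrp4 had signals of 231, 176 and 162 on the early arrays. It then held a nearly level course, with 94.2 at ZT20, 101 at ZT24, and 96.0, 103, 90.6, 95.1 and 86.3 from ZT28 to ZT44. Its late arrays differed by a factor of only 1.2, against a fold of 1.99 between the early and late geometric means. The other 6 genes of a list for phenylpropanoid synthesis and O-methyltransferases were not members. Among them bm1, a cinnamyl alcohol dehydrogenase gene of lignin synthesis, had overlapping arrays and a fold of 1.11, and chs1, a chalcone synthase gene of flavonoid synthesis, lay higher on all late arrays at a fold of 0.79. The list's median difference was -0.15 on the log2 scale, while a wider text-based list of phenylpropanoid and flavonoid genes, which holds no member, had a median of 0.23. Of the 11 in that wider list that passed the filter, 1 lay lower and 2 higher on all late arrays, beside 12% and 17% of all probe sets.

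Of the members without a gene name, these 3 had the highest ratios. Zm.2529.1.A1_s_at gave 399, 533 and 340 early, 120 at ZT20, 131 at ZT24, and 104, 96.9, 56.1, 79.6 and 72.8 late. Zm.10659.1.A1_at gave 523, 566 and 438 early, 137 at ZT20, 156 at ZT24, and 106, 122, 48.5, 159 and 158 late. Zm.17616.1.A1_at gave 168, 187 and 110 early, 56.3 at ZT20, 54.3 at ZT24, and 46.4, 51.3, 49.9, 38.1 and 36.1 late. All 3 had ZT4 as the highest and ZT8 as the lowest early array. Their late signals lay between 36.1 and 159, where an array signal is closer to background, and their folds between geometric means were 5.21, 4.62 and 3.45.

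The 3 probe sets of Zm.1090, singled out after their values were seen, share sequence, so that RNA of 1 gene can reach all of them. Zm.1090.4.S1_x_at had a ratio of 1.91, Zm.1090.2.A1_a_at of 1.59 and Zm.1090.1.A1_x_at of 1.501. The brightest, Zm.1090.1.A1_x_at, gave 8018, 7193 and 5170 early, 3077 at ZT20, 3700 at ZT24, and between 2840 and 3445 late. All 3 were lowest at ZT8 among the early arrays. Their log2 signals correlated with r between 0.974 and 0.997 over the 10 arrays, which they share. The rule read 8 of these arrays and chose all 3 for the same fall, so a high r is largely given by the choice.

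The array also held other probe sets of the members' sequence clusters. In 7 of the 23 clusters there were another 27 probe sets, of which 19 reached a signal of 100 on some array. Of these 19, 11 lay lower on all late arrays and 14 had a lower late than early geometric mean. Over all probe sets that passed the filter 12% lay lower. The cluster mates share sequence with a member and were read on the arrays the rule used, so they are no check on the choice.

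The unread arrays at ZT20 and ZT24 show when the lower level was reached. At ZT20, at the end of the first subjective night, 19 of the 25 members had a signal no higher than their highest late array, 5 lay between the late and the early range, and 1 was in the early range. Measured as the share of the fall in log2 signal, from 0 at the early mean to 1 at the late mean, ZT20 stood at a median of 0.91, and 10 members were at or past their late mean. Most members were thus already low at the first array after ZT8, and the course between ZT8 and ZT20 was not analysed here. By comparison, the 82 probe sets of the mirrored rule stood at a median of 0.81 of their rise at ZT20.

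The exception at ZT20 was Zm.4713.1.A1_at, also singled out after its values were seen. Its signals were 241, 233 and 288 early and still 234 at ZT20, a share of 0.10. They were 130 at ZT24 and 119, 108, 140, 114 and 120 on the late arrays. Its drop thus lay between ZT20 and ZT24, a step later than in the 19 members already in their late range at ZT20.

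At ZT24, the second subjective dawn and the same time of day as ZT0, no member was in its early range. In 9 members the signal was within the late range and in 16 it lay between both ranges, with a median share of 0.79. At least 1.5-fold lower than at ZT0 were 21 of 25 members, where 6.37% of the 10850 probe sets with 100 or more at ZT0 passed that fold. The rule read ZT0, so this count describes the choice. The median ratio of ZT0 to ZT24 was 1.85, against 1.01 over the 10412 probe sets at 100 or more on the early arrays.

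In 21 of the 25 members ZT24 lay above ZT20, as it did in 40.9% of the 10412 probe sets, so that the members' share of the fall was smaller at ZT24. The ratio of ZT24 to ZT20 had a median of 1.17 and ran from 0.55 in Zm.4713.1.A1_at to 1.41 in lhcb6. It was at least 1.2 in 11 members, compared with 8.75% of the same 10412 probe sets, whose median was 0.97. Neither array was read by the rule. The gene gpc4 had a ratio of 1.31, nar of 1.23 and zrp4 of 1.08. The array tops moved the same way, with a 99th percentile of 5939 at ZT20 and 6769 at ZT24. In the 10 members with an early geometric mean of at least 1000 the median ratio was 1.22, and in the 15 dimmer ones it was 1.08. On quantile-normalized signals 9 members reached 1.2, and ZT24 still lay above ZT20 in 21. Each value rests on 1 array at each time.

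**Figure D3:**
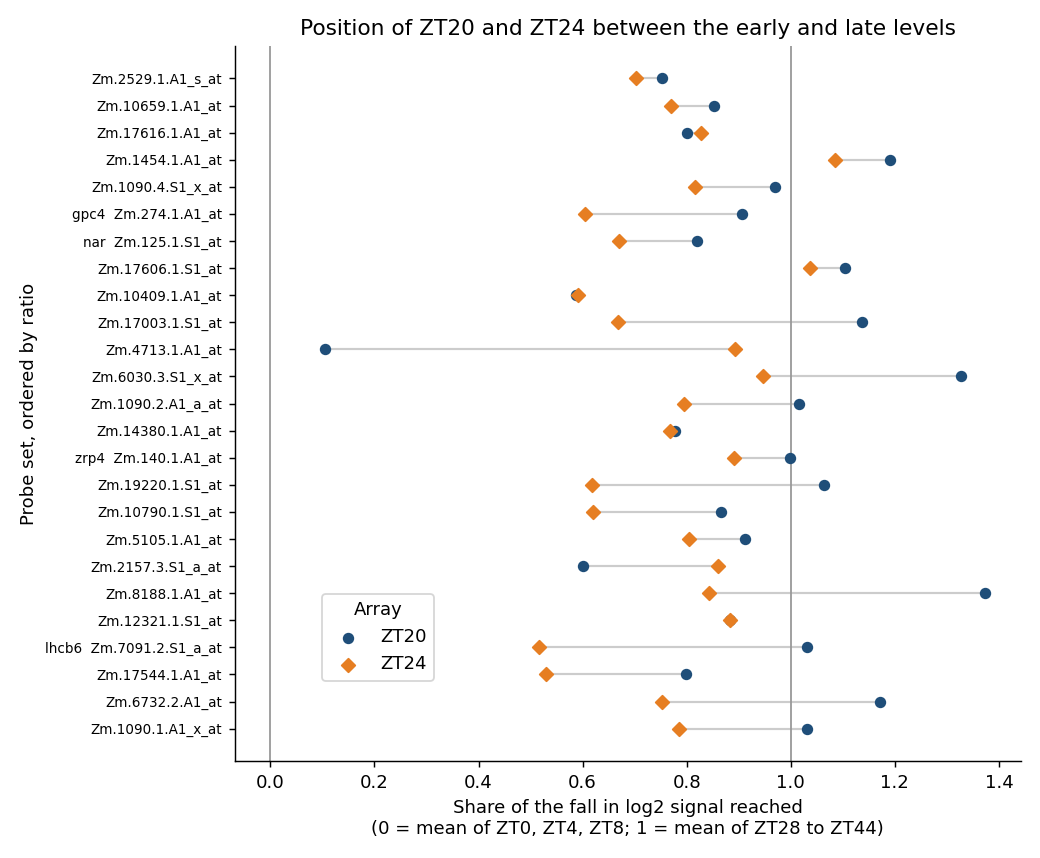
For each of the 25 members, ordered by ratio with the highest at the top, the share of the fall in log2 signal reached at ZT20 (blue circles) and at ZT24 (orange diamonds), where 0 is the mean of ZT0, ZT4 and ZT8 and 1 is the mean of ZT28 to ZT44. All circles but 1 lie between 0.59 and 1.37, with Zm.4713.1.A1_at alone near 0.10, and in 21 members the diamond lies to the left of the circle.

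From ZT20 to ZT44, a day apart, the members changed little: the median ratio of ZT20 to ZT44 was 1.03, against 0.98 for those 10412 probe sets. Of the 20 members with a ZT20 signal of at least 100, 2 were at least 1.5-fold lower at ZT44, Zm.4713.1.A1_at at a ratio of 1.95 and Zm.2529.1.A1_s_at at 1.65. Over all 10767 probe sets with such a ZT20 signal, 0.455% passed this fold. The rule read ZT44 but not ZT20.

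In 20 of 25 members the highest late signal was less than 1.5 times the lowest, compared with 91.6% of the 10412 probe sets. A slope over ZT28 to ZT44 was fitted with limma to the 5 arrays, and p-values were adjusted over all 12512 probe sets. No member passed an adjusted p of 0.05 (the lowest was 0.999), as was the case for 0% of all probe sets in limma. At an unadjusted p of 0.05, 2 members passed, beside 4.36% of all probe sets. These were Zm.8188.1.A1_at at a slope of -0.020 log2 units per h (SE 0.0065, limma unadjusted p = 0.018) and gpc4 at -0.022 (SE 0.0094, limma unadjusted p = 0.046). The rule read all 5 of these arrays, so neither the fits nor their counts are independent of the choice. The slope was negative in 19 members, beside 50.1% of all probe sets. Its median was -0.012 log2 units per h in the members and -3.53e-05 over all probe sets. With 5 arrays these p-values measure scatter around a line, and a slope that misses the threshold does not show a level course.

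A 24-h rhythm was tested on all 10 arrays with a cosine and a sine term in limma, beside a step between ZT8 and ZT20 that takes out the difference chosen by the rule. No member passed an adjusted p of 0.05, and the lowest was 0.156. Of all probe sets, 0.016% passed, which is 2 of 12512. With 10 arrays, a fit that misses the threshold does not show that a rhythm is absent. At an unadjusted p of 0.05, 9 of 25 members passed, compared with 15.2% of all probe sets. The 3 probe sets of Zm.1090 were among these 9, with fitted peaks between 0.57 and 1.93 h after dawn. So were gpc4 with a peak at 2.71 h and lhcb6 at 3.57 h. The rest were Zm.2529.1.A1_s_at at 1.66 h, Zm.8188.1.A1_at at 4.82 h, Zm.10409.1.A1_at at 21.6 h and Zm.19220.1.S1_at at 23.8 h. When a straight line took the place of the step, 1 member passed the unadjusted threshold, beside 1385 of all 12512 probe sets. The rule read 8 of the 10 arrays, so these fits are not independent of the choice.

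**Figure D4:**
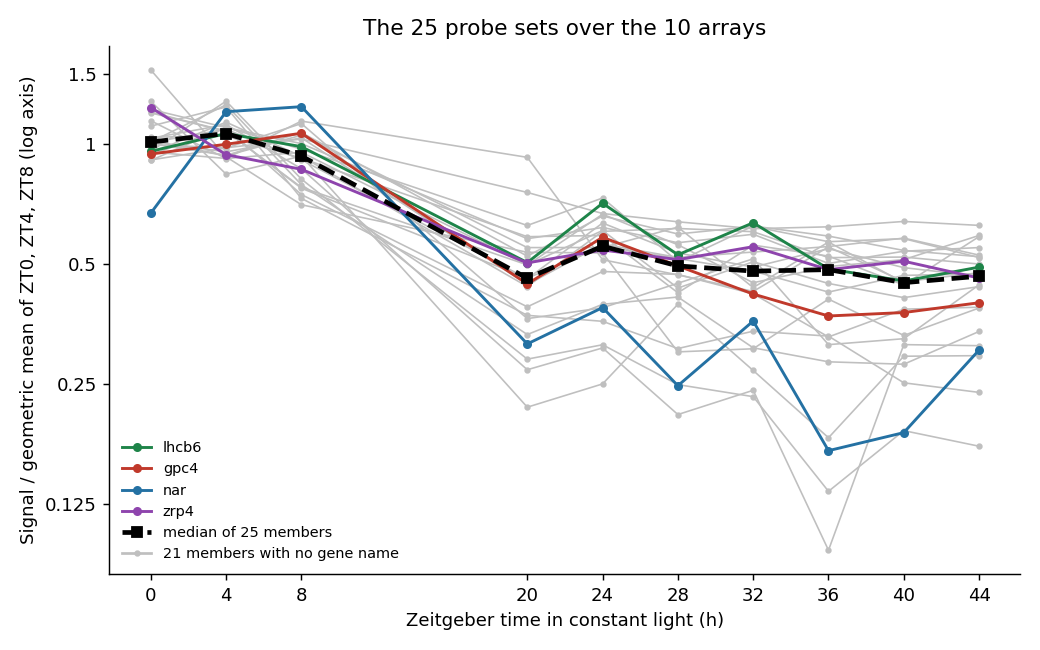
Signals of the 25 members over Zeitgeber time (h), each divided by the geometric mean of its own ZT0, ZT4 and ZT8 signals (log axis), 1 pooled array per point with no error bars; 4 named genes are coloured, the others grey, and the dashed line is the median. The median is 0.46 at ZT20 and 0.55 at ZT24 and stays between 0.45 and 0.49 from ZT28 to ZT44.

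The median member stood at 0.46 of its early geometric mean at ZT20, at 0.55 at ZT24 and between 0.45 and 0.49 on the late arrays. Within the first day the members did not share one order: ZT0 was the highest early array in 7, ZT4 in 10 and ZT8 in 8, and ZT8 was the lowest in 12. On the late arrays ZT36 was the lowest of the 5 in 9 members and ZT32 the highest in 9. These orders were not counted over all probe sets, so the counts do not set the members apart. At matched times of day the median ratio of ZT4 to ZT28 was 2.09 and that of ZT8 to ZT32 was 1.93, where the 10412 probe sets had medians of 0.96 and 0.99. These pairs are part of the chosen difference.

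The scaling of the arrays bears on the bright members in particular. Of the 10 members with an early geometric mean of at least 1000, 2 kept a ratio of at least 1.5 on quantile-normalized signals, and their ratios then ran from 1.33 to 2.01. All 15 dimmer members kept it, with ratios from 1.57 to 3.43. The part of the array tops in the bright members' lower late signals was not tested further.

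The harvested tissue expressed the markers of a green shoot throughout. The summed signals of 6 mesophyll probe sets (pep1, ppdk1) were 44630 to 48258 early and 33223 to 44434 late, and those of 3 bundle sheath probe sets (me3, ssu1, rca1) were 18495 to 24242 early and 14334 to 18795 late. For 11 probe sets of dividing cells (histones, pcna1, pcna2, cyclins) the sum was 12866 to 14532 early and 10433 to 11814 late without overlap. Of the 8 that passed the filter, 4 lay lower on all late arrays, beside 12% of all probe sets. The sum of 5 epidermis probe sets overlapped, with 29047 to 29264 early and 22193 to 29767 late. Of 15 seed probe sets, 14 stayed below 50 on all arrays. The mesophyll sums were parted by little, and all 5 mesophyll probe sets that passed the filter overlapped singly. At ZT24 the mesophyll sum was 48261, just above the highest early sum of 48258. The 99th percentile of the array signals was also higher at ZT24 (6769) than at ZT28 (5415), and its part in these sums was not tested. A wider list of histone and cell division genes was found by text in the annotation. Of its 25 probe sets that passed the filter, 4 lay lower and 3 higher on all late arrays, beside 12% and 17% of all probe sets. Its median difference was 0.06 on the log2 scale, beside 0.06 for all 12512 probe sets passing the filter. The part of the smaller set of dividing cell markers in the members' lower late signals was not tested.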

How the data were processed

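The authors deposited 1 table of linear signal intensities for 10 arrays, made with MAS5 per the submitters' processing notes; its version is not given in the sources used here. The study's own waveform analysis used RMAExpress values, not used here. The 113 control probe sets were removed from 17734, leaving 17621, and values below 1 (2968) were set to 1. Samples were grouped by the time point in their labels. ZT12 and ZT16 were not analysed here.

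The members and gene lists were chosen with earlier results of these data known. Members with a gene symbol were named, then the 3 unnamed members with the highest ratio and the 3 probe sets on either side of the threshold. Names came from the platform annotation, updated by Entrez number through RefSeq (Zm-B73-REFERENCE-NAM-5.0). Probe sets that reached a signal of 50 on 3 or more arrays (12512) entered the fits, made on quantile-normalized log2 signals with limma 3.58.1 (R 4.3.3; lmFit and eBayes, its prior variance following intensity) and adjusted by Benjamini-Hochberg; they were tested on simulated data. Descriptions used Python 3.11.15, numpy 2.4.6 and pandas 2.3.3, and the plots matplotlib 3.10.9. The number of arrays limits the precision. Alternatives were the scaling, the ratio, the signal minimum, the limit on ZT0, the fit settings and leaving out each array.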

Additional observations from a re-analysis of the deposited data

How the results depend on the processing

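The number of members depended on the scaling and the thresholds. It was 29 on quantile-normalized signals, of which 17 were among the 25, and 49 with signals divided by the median of their array, which held all 25. It was 133 at a ratio of 1.3, 4 at a ratio of 2, 35 without the limit on ZT0, 28 and 19 with a lowest early signal of 50 and 200, and between 28 and 84 with 1 of the 8 arrays left out; leaving out ZT0, ZT4, ZT8 and ZT28 gave 59, 60, 84 and 38. Without ZT0 or ZT4 the limit on ZT0 could not be applied. The ratio of lhcb6 fell below the threshold on quantile-normalized signals (1.43), and those of gpc4, nar, zrp4 and the 3 unnamed probe sets did not under either scaling.

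The median share of the fall reached at ZT20 and at ZT24 moved by at most 0.1 under all 13 alternatives each, and at ZT20 ran from 0.83 for the members at a ratio of 2 to 0.99 for those chosen on quantile-normalized signals. With a fold of 2, 10 members were lower at ZT24 than at ZT0 and 0 at ZT44 than at ZT20. With ZT24 at least 1.5-fold above ZT20 there were 0 members. The folds 1.1, 1.2 and 1.5 for that pair were chosen after seeing the data. The shares of all probe sets at a fold of 2, and at 1.5 for ZT24 over ZT20, were not counted. In limma 0 members passed the adjusted threshold under any of the 12 and 18 alternative fits of the slope and the rhythm. At the unadjusted threshold the slope called 1 member on signals that were not normalized, beside 543 of all 12512 probe sets. With 1 array left out it called 0 to 4 members, beside 352 to 1035 of all probe sets. It called 0 without ZT28 (535 of all), 1 without ZT32 (352 of all) and 4 without ZT36 (705 of all). The rhythm called 1 member with a line in place of the step, beside 1385 of all probe sets. With 1 array left out it called 4 to 10 members, beside 1332 to 1942 of all probe sets. It called 4 without ZT24 (1684 of all) and 5 without ZT36 (1715 of all). The causes were not tested. No paired analysis was possible because the time points have 1 array each and so share fewer than 2 replicate numbers. Matched times of day are not replicates, and their ratios are given only as descriptions.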
